A study of Homo sapiens with 6 samples.

Results

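The genes described here encode the ligands and receptors that steer growing axons: 69 of the 26372 genes in the expression table, chosen by symbol alone. They comprise 20 semaphorins, 8 plexins, 2 neuropilins, 8 ephrins, 14 Eph receptors, 3 Slits, 4 Robos, 4 netrins and the 6 netrin receptors DCC, NEO1 and UNC5A to UNC5D. The RNA was that of BE(2)-M17, a human neuroblastoma cell line with neuron-like features. The 3 control libraries (replicates 2, 3 and 4) were cells labelled control in genotype, and the 3 knockdown libraries (also numbered 2, 3 and 4) had GOMAFU knocked down, a long non-coding RNA whose symbol in the table is MIAT. Small RNA (100 pmol) was delivered with a lipid reagent, per the labels' protocols. The labels do not say which RNA the controls received, which sequence was used against GOMAFU, or whether replicates were separate cultures, so p-values measure the spread between these libraries, which may be technical. All 6 libraries came from 1 cell line.

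Axon guidance runs on pairs of ligand and receptor. Semaphorins bind plexins, and most secreted class 3 semaphorins need a neuropilin as co-receptor. Ephrins bind Eph receptor tyrosine kinases and can signal back into the cell that carries them, Slits repel through Robo receptors, and netrins attract through DCC or repel through UNC5 receptors. Outside the nervous system the same proteins act in vessel growth and cell sorting, and DCC, UNC5 and NEO1 are known as dependence receptors, which can promote cell death when no ligand is bound. Sympathetic neurons and the neural crest cells they come from, the lineage of neuroblastoma, use semaphorins, ephrins and Slits on their way to their targets.

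The deposited unit was FPKM, fragments relative to transcript length and library size, so levels of different genes can be set side by side. The columns summed to 579365 to 637153 FPKM. The depth relative to control replicate 3, read from the smallest steps of low genes, was 0.972 to 1.36 and did not separate the groups. MIAT itself was 5.38, 5.96 and 8.57 FPKM in controls 2, 3 and 4, above its 1.27, 1.32 and 3.21 FPKM in the knockdown libraries without overlap (log2 difference -1.42, SE 0.27, adjusted p = 0.9998 by limma; exact two-sided permutation p = 0.1, the smallest that 3 against 3 allows). Of the markers of adrenergic neuroblastoma, HAND2 stood at 515 to 606 FPKM and GATA3 at 141 to 203, whereas TH (0.0406 to 0.0872) was near 0. Knockdown replicate 4 stood apart from the rest. The summed level of 40 interferon response genes was 593 to 827 FPKM in the controls but 1400, 891 and 16700 FPKM after knockdown (replicates 2, 3, 4). B2M made up most of the controls' sums, at 528 to 756 FPKM. The median of the 40 genes was 0.179 to 0.277 FPKM in the controls and 5.88, 0.771 and 142 after knockdown. By this measure all 3 knockdown libraries were raised, number 4 the most.

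Guidance genes were unevenly expressed, and the receptors of netrin headed the list. Of the 69 genes, 22 averaged 5 FPKM or more, 17 lay between 1 and 5, 18 between 0.1 and 1, and 9 above 0 but under 0.1. The other 3, DCC, EPHA3 and ROBO4, were listed at 0 in every library. The table holds no read counts, so no upper limit can be put on these zeros. Values below are given in the order of replicates 2, 3 and 4.

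**Figure D1:**
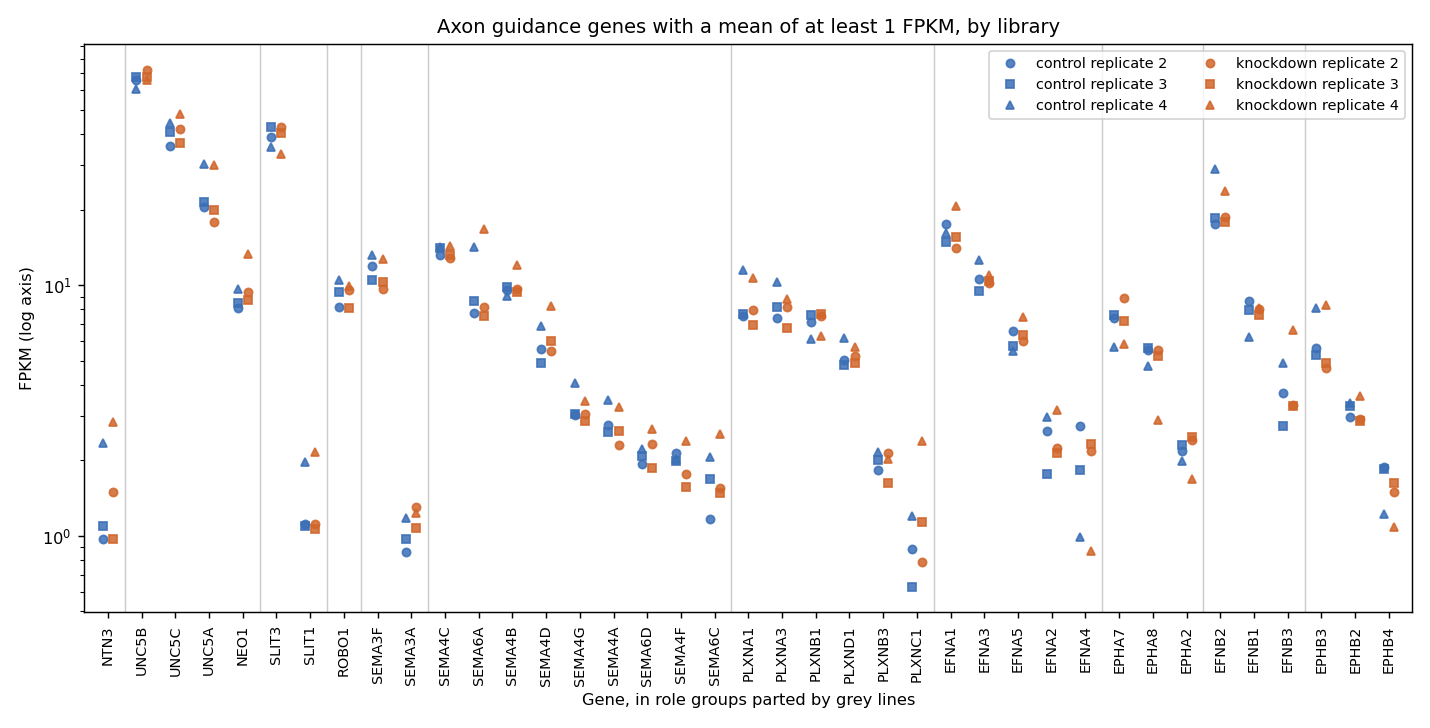
FPKM on a log axis of the 39 guidance genes averaging 1 FPKM or more, in role groups parted by grey lines, with controls in blue and knockdown libraries in orange and the marker shape giving the replicate number. UNC5B is highest at 60.5 to 72.2 FPKM, the 2 colours overlap for every gene, and the triangles of number 4 often lie apart from the other shapes in both colours.

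Among the netrin receptors, UNC5B was the most abundant guidance gene of all. The gene spans positions 71212570 to 71302864 of chromosome 10 in GRCh38 (plus strand). Its level stood at 66.0, 67.8 and 60.5 FPKM in the controls and 72.2, 67.9 and 65.8 in the knockdown libraries. UNC5B alone made up 41.8% to 51.0% of the summed FPKM of the 6 netrin receptors. UNC5C stood at 35.8, 40.7 and 44.3 FPKM in the controls and 42.0, 36.9 and 48.3 after knockdown. UNC5A stood at 20.4, 21.5 and 30.5 FPKM in the controls and 17.8, 20.0 and 30.0 after knockdown. For each of these repulsive receptors the control and knockdown values overlapped. UNC5D, the remaining family member, was listed above 0 in 1 library only, at 0.00818 FPKM. DCC, the receptor of netrin attraction, was listed at 0 throughout, and its relative NEO1, which also binds repulsive guidance molecules, stood at 8.08, 8.45 and 9.64 FPKM in the controls and 9.42, 8.73 and 13.3 after knockdown.

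The netrins themselves were low. NTN1, the classical ligand of DCC and UNC5 receptors, did not exceed 0.102 FPKM and was listed at 0 in control replicates 2 and 4. NTN4 (0.12 to 0.449 FPKM) and NTN5 (0.102 to 0.316 FPKM) lay under 1 FPKM in all libraries. NTN3 made up 75.3% to 83.1% of the netrin sum, at 0.974, 1.10 and 2.34 FPKM in the controls and 1.49, 0.971 and 2.85 after knockdown. The controls' summed netrin level of 1.85 ± 0.846 FPKM compared with 138 ± 7.33 FPKM for the netrin receptors (SD, n = 3).

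Slits showed the opposite balance of ligand and receptor. SLIT3, a secreted repellent on chromosome 5 (168661733 to 169301129, minus strand), stood at 39.1, 42.6 and 35.6 FPKM in the controls and 42.7, 40.6 and 33.4 after knockdown, and made up 92.7% to 97.0% of the Slit sum. SLIT1 stood at 1.10 to 1.98 FPKM in the controls and 1.07 to 2.16 after knockdown, and SLIT2 at 0.110 to 0.485 over all 6 libraries. ROBO1, a receptor of Slits on axons, with 88.1% to 91.3% of the Robo sum, stood at 8.16, 9.38 and 10.5 FPKM in the controls and 9.54, 8.14 and 9.93 after knockdown. ROBO2 (0.116 to 0.645 FPKM) and ROBO3 (0.603 to 0.973 FPKM), a Robo known for its part in midline crossing, were low. In the order of control means UNC5B (60.5 to 67.8 FPKM) did not overlap with the next gene, UNC5C (35.8 to 44.3), and SLIT3 (35.6 to 42.6) overlapped with UNC5C but not with UNC5A (20.4 to 30.5). UNC5A overlapped with EFNB2, and EFNB2, EFNA1, SEMA4C and SEMA3F followed each other without overlap, the first and last of these steps by less than the printed digits. From rank 8 down, each gene's control range overlapped with that of the next, except that SEMA3B (0.571 to 0.926 FPKM) lay above PLXNA4 (0.210 to 0.514).

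Among semaphorins the membrane-bound classes carried most of the signal. SEMA4C, a ligand of B-type plexins, stood at 13.8 ± 0.502 FPKM in the controls and 13.4 ± 0.732 after knockdown (SD, n = 3 each). SEMA4B, of the same class, stood at 9.46 ± 0.419 and 10.3 ± 1.40 FPKM, and SEMA4D, the ligand of PLXNB1, at 5.76 ± 0.997 and 6.58 ± 1.51 FPKM (SD, n = 3 each). SEMA6A, which signals through A-type plexins, was the most variable of them, at 7.71, 8.61 and 14.2 FPKM in the controls and 8.21, 7.56 and 16.7 after knockdown. The libraries numbered 4 were the high ones in both groups. SEMA4A, SEMA4F, SEMA4G, SEMA6C and SEMA6D had means between 1 and 5 FPKM, whereas SEMA5A, SEMA5B, SEMA6B and SEMA7A averaged under 1.

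Only 2 of the 7 secreted class 3 semaphorins passed a mean of 1 FPKM. SEMA3F made up 77.6% to 82.6% of their sum, at 11.9, 10.5 and 13.2 FPKM in the controls and 9.61, 10.3 and 12.7 after knockdown. SEMA3A, the collapsing factor of growth cones, stood at 1.00 ± 0.157 and 1.20 ± 0.112 FPKM (SD, n = 3 each). The neuropilins were both under 1 FPKM on average. NRP1, the co-receptor of SEMA3A, stood at 0.107 to 0.340 FPKM, and NRP2, the co-receptor of SEMA3F, at 0.643, 0.643 and 1.99 FPKM in the controls and 0.538, 0.423 and 1.69 after knockdown. NRP2 fell just short of the filter with a mean of 0.988 FPKM. The 8 plexins in the set are not the whole family. Of these 8, PLXNA1 (8.89 ± 2.22 FPKM in controls, 8.52 ± 1.92 after knockdown), PLXNA3 (8.65 ± 1.50 and 7.90 ± 1.05), PLXNB1 (6.93 ± 0.754 and 7.15 ± 0.783) and PLXND1 (5.32 ± 0.721 and 5.24 ± 0.393, all SD, n = 3) averaged 5 FPKM or more. PLXNB3 and PLXNC1 were lower, and PLXNA2 and PLXNA4 lay under 1 FPKM in all libraries.

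On the Eph side the ligands outweighed the receptors. EFNB2, a transmembrane ephrin known for arterial identity, stood at 17.5, 18.6 and 29.1 FPKM in the controls and 18.7, 17.9 and 23.8 after knockdown. EFNA1, which is held to the membrane by a lipid anchor, stood at 17.5, 14.9 and 16.1 FPKM and at 14.1, 15.5 and 20.7. EFNA3 stood at 10.9 ± 1.58 and 10.5 ± 0.420 FPKM, EFNB1 at 7.60 ± 1.27 and 7.90 ± 0.284, and EFNA5 at 5.92 ± 0.590 and 6.58 ± 0.766 (SD, n = 3 each). The summed ephrins reached 37.3 ± 3.28 (A type) and 33.1 ± 6.13 FPKM (B type) in the controls, against 16.0 ± 1.98 for the 9 EphA and 11.3 ± 1.28 for the 5 EphB receptors (SD, n = 3).

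Eph receptors were represented by few members. EPHA7 stood at 7.38, 7.60 and 5.69 FPKM in the controls and 8.86, 7.17 and 5.80 after knockdown, and EPHA8 at 5.52, 5.64 and 4.76 and at 5.52, 5.23 and 2.90. EPHB3 stood at 5.64, 5.26 and 8.07 FPKM and at 4.66, 4.91 and 8.34. In the libraries numbered 4 of both groups both EphA receptors were low and EPHB3 was high. EPHA2, EPHB2 and EPHB4 had means between 1 and 5 FPKM. EPHA1, EPHA4, EPHA5 and EPHB6 were each listed at 0 in at least 4 of the 6 libraries. EFNA1, EFNA3 and EFNA4 lie side by side on chromosome 1 between 155063731 and 155134857 (plus strand), yet EFNA4 averaged 1.86 ± 0.874 FPKM in the controls where EFNA1 averaged 16.1 ± 1.30 (SD, n = 3).

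The question of the design was whether these genes differ between knockdown and control cells. Of the 69 genes, 39 passed the filter of a mean of at least 1 FPKM and were tested on the log2(FPKM + 1) scale together with all other kept genes. None passed an adjusted p of 0.05 in limma, with 0% of all 12164 genes higher and 0% lower. Unadjusted p-values under 0.05 numbered again 0 of 39 in either direction, where 0.97% of all genes were higher and 1.19% lower, and the smallest unadjusted p of a guidance gene was 0.193. No guidance gene had groups without overlap, against 4.01% of all genes higher and 4.35% lower. The fitted differences were above 0 for 20 genes (46.7% of all genes) and below 0 for 19 (53.3% of all), with a median of 0.006 against -0.008 over all genes tested. In bulk RNA, fewer cells of a kind and less RNA per cell cannot be told apart.

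**Figure D2:**
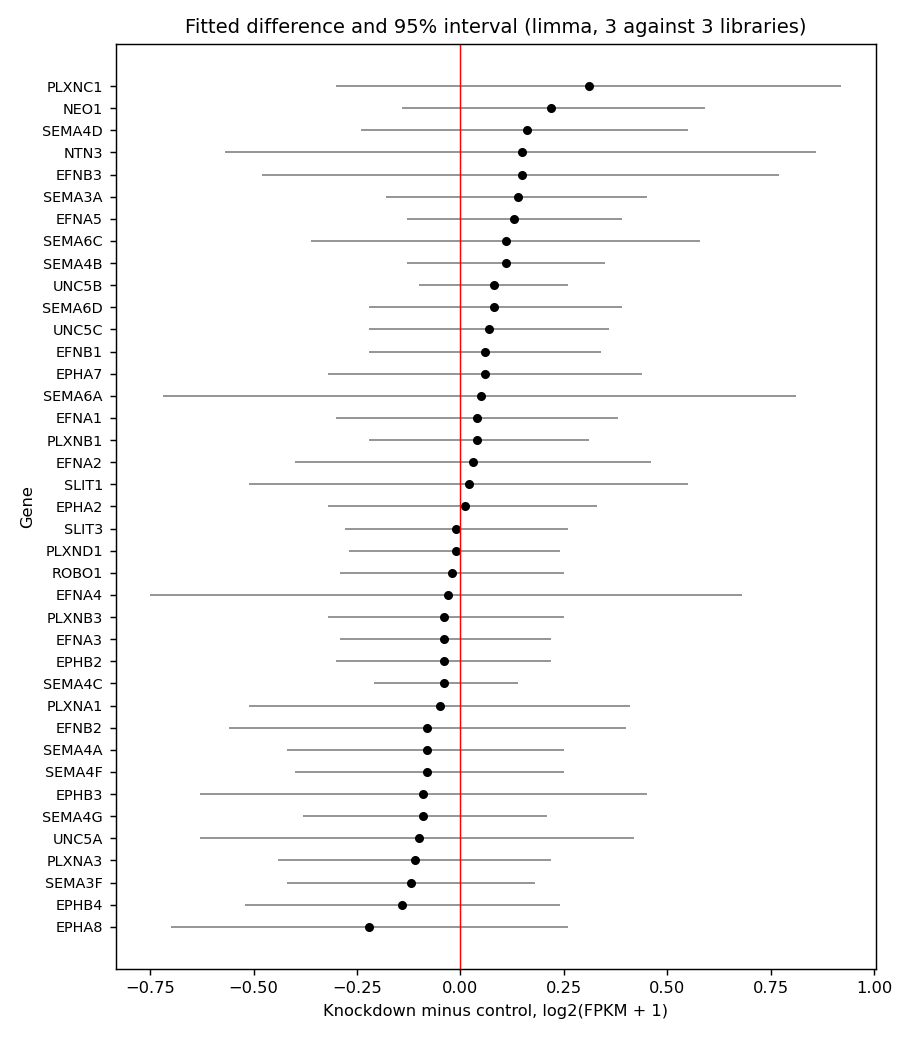
Fitted difference (knockdown minus control, log2(FPKM + 1), black points) and its 95% interval (grey lines) from limma for the 39 guidance genes tested, sorted by the difference, with a red line at 0. Every interval crosses 0, from EPHA8 at -0.22 to PLXNC1 at 0.31, and the widths differ, from SEMA4C (-0.21 to 0.14) to SEMA6A (-0.72 to 0.81).

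A missed threshold does not show equal levels, and the 95% intervals give what the 6 libraries allow. UNC5B had a log2 difference of 0.08 (SE 0.08, interval -0.10 to 0.26) and SLIT3 one of -0.01 (SE 0.11, interval -0.28 to 0.26). SEMA4C was bounded most tightly, at -0.04 (SE 0.07, interval -0.21 to 0.14). Wide intervals belonged to SEMA6A (0.05, SE 0.32), EFNA4 (-0.03, interval -0.75 to 0.68), NTN3 (0.15, interval -0.57 to 0.86) and EFNB3 (0.15, interval -0.48 to 0.77).

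The 10 genes with the smallest p and a difference above 0 were NEO1 (0.22), PLXNC1 (0.31), EFNA5 (0.13), UNC5B (0.08), SEMA4B (0.11), SEMA3A (0.14), SEMA4D (0.16), SEMA6D (0.08), UNC5C (0.07) and SEMA6C (0.11), all with an adjusted p of 0.9998 in limma. Below 0 they were EPHA8 (-0.22), SEMA3F (-0.12), EPHB4 (-0.14), PLXNA3 (-0.11), SEMA4G (-0.09), SEMA4A (-0.08), SEMA4F (-0.08), SEMA4C (-0.04), UNC5A (-0.10) and EFNB2 (-0.08), with the same adjusted p. Semaphorins, ephrins, plexins and UNC5 receptors stood in both sets, and the second also held the Eph receptors EPHA8 and EPHB4. Within the replicate numbers, 4 genes were higher after knockdown in all 3 pairs and 3 were lower, against 12.1% and 14.1% of all genes. Several genes overlap a neighbour on the other strand, and nothing in the labels tells if libraries kept strand, so their reads cannot be told apart: SEMA4G overlaps MRPL43 (60.0 to 78.0 FPKM), PLXNA3 overlaps LAGE3 (14.3 to 23.7), PLXNC1 overlaps CEP83 (4.71 to 5.94) and EPHB4 overlaps SLC12A9 (4.00 to 4.62).

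Among genes below the filter, EPHA10, a kinase-dead Eph receptor, was the one whose groups did not overlap. It stood at 0.708, 0.810 and 0.665 FPKM in the controls and 0.530, 0.611 and 0.520 after knockdown. With no filter this was 1 of 66 guidance genes with any signal, where 3.72% of 18663 genes were lower without overlap and 4.02% higher. EPHA6 stood at 0.923, 1.07 and 0.607 FPKM and at 0.278, 0.649 and 0.503, with overlap through control replicate 4.

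A larger pattern among guidance genes set both libraries numbered 4 apart from the other 4. In 23 of the 39 genes (59.0%) both libraries numbered 4, control and knockdown, lay above the other 4 libraries, where 21.2% of all 12164 genes did so. In 8 genes (20.5%) both lay below the other 4, against 24.5% of all genes. The median of the 39 genes was 0.208 higher on the log2(FPKM + 1) scale in the libraries numbered 4 than in the others, against -0.007 over all genes. These values describe the libraries, with no test, and were singled out after the data were seen.

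**Figure D3:**
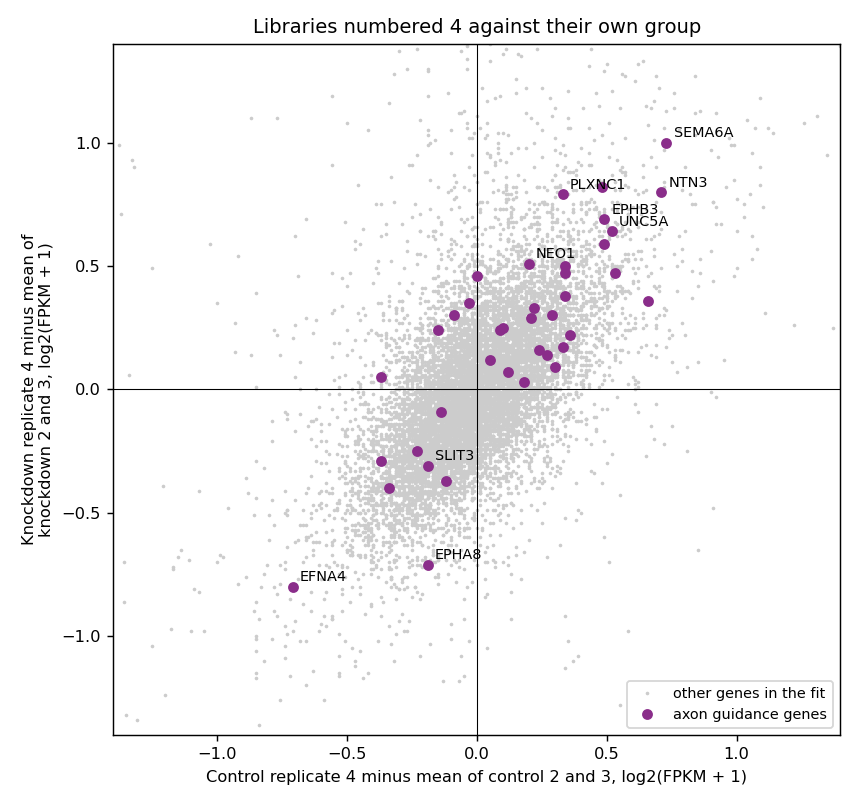
Difference of replicate 4 from the mean of replicates 2 and 3 within the controls (x axis) and within the knockdown libraries (y axis), in log2(FPKM + 1), for the 39 guidance genes (purple) and the other genes tested (grey); 221 grey genes lie beyond the axes at 1.4. Of the guidance genes, 26 lie above 0 on both axes and 8 below 0 on both, with SEMA6A (0.73 and 1.00) and EFNA4 (-0.71 and -0.80) at the ends.

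SEMA6A was the guidance gene with the largest rise of this kind, at a mean of 15.5 FPKM in the 2 libraries numbered 4 and 8.02 in the other 4. UNC5A averaged 30.3 against 19.9 FPKM, EFNB2 26.4 against 18.2, EPHB3 8.20 against 5.12, PLXNA1 11.1 against 7.53, SLIT1 2.07 against 1.10 and NTN3 2.60 against 1.13. EFNB3, a transmembrane ephrin and midline repellent, averaged 5.75 against 3.28. The opposite held for EFNA4, at 2.74, 1.84 and 0.990 FPKM in the controls and 2.18, 2.33 and 0.867 after knockdown, and for EPHB4, an ephrin-B2 receptor, at 1.89, 1.85 and 1.22 and at 1.49, 1.63 and 1.09. All 3 EphA receptors tested (EPHA2, EPHA7 and EPHA8) were lower in both libraries numbered 4 than in the other 4, as were PLXNB1, SLIT3 and UNC5B. The remaining 8 genes, SEMA3A, SEMA4B, SEMA4F, SEMA6D, PLXNB3, EFNA1, EFNA5 and EFNB1, did not set number 4 apart in both groups. Of the genes too low to be tested, NRP2 and SEMA5A (0.430, 0.470 and 1.60 FPKM in the controls, 0.543, 0.339 and 1.49 after knockdown) had both libraries numbered 4 on top, as did SEMA3B, ROBO2, SLIT2, NTN4 and NTN5. PLXNA2, PLXNA4 and SEMA3E had both below the other 4.

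Other measures also moved with the number 4, among them transcript length and G+C, splits chosen after the data were seen. Longer transcripts were higher in these libraries: in the longest of 4 equal classes of transcript length (5390 to 91700 bases) 34.5% of genes had both libraries numbered 4 on top, and in the shortest class 9.91%. The guidance genes have long transcripts, with a median of 5335 bases for the longest isoform against 3653 over all genes, and 11 of their 19 genes in the longest class had both libraries on top, as did 3 of 5 in the shortest. Transcript G+C went the other way over all genes: in the highest of 4 equal classes (56.5% to 74.5%) 17.1% of genes had both libraries numbered 4 on top and 31.2% had both below. The guidance genes are rich in G+C (median 59.0% against 48.2%), and of their 25 genes in that class 15 had both on top and 6 both below. The 15 mesenchymal markers summed to 389 and 365 FPKM in control and knockdown replicate 4 and to 446 to 473 in the other 4 libraries, with PRRX1 at 0 and YAP1 at most 0.0131. VIM carried this fall (193 and 146 FPKM against 272 to 302), while TWIST1 was higher (175 and 198 against 154 to 162). The 7 Schwann cell markers summed to 23.4 and 36.4 FPKM against 15.7 to 17.7, nearly all of it PMP22, with SOX10 at 0.110 to 0.281 and MBP at most 0.0600. The 15 adrenergic markers summed to 6770 and 5970 FPKM against 5670 to 6700. Of the 13 tested, 4 had both libraries numbered 4 on top (PHOX2A, HAND2, GATA3 and ISL1), against 21.2% of all genes. Another 4 had both below (GATA2, DBH, DDC and CHGB), against 24.5% of all genes. The part of these measures in the result was not tested. The depth relative to control replicate 3 was 0.972 in control replicate 4, the lowest of all libraries. In knockdown replicate 4 it was 1.06, within the range of the libraries not numbered 4. Interferon response genes were raised in the knockdown libraries, most in replicate 4. They were not raised in control replicate 4, where their sum of 593 FPKM was the lowest of all libraries.

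Without both libraries numbered 4, fitted differences of the 38 guidance genes that passed the filter ran from -0.20 (SEMA4F) to 0.19 (SEMA3A), and none passed the threshold in limma. EPHA2, NEO1, SEMA3A and UNC5B were then higher without overlap, where 16.9% of 12018 genes were, and EPHB2, EPHB3, EPHB4, SEMA3F, SEMA4F and UNC5A were lower, where 19.4% were. The guidance genes' shares, 10.5% and 15.8%, were below these backgrounds.

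Knockdown replicate 4 taken alone lay above all 5 other libraries for 18 of the 39 genes (46.2%, against 27.4% of all genes) and below them for 5 (12.8%, against 31.4%). Control replicate 4 was the highest library for 11 genes (28.2%, against 18.1% of all) and the lowest for 6 (15.4%, against 16.9%). NEO1 and PLXNC1 had the largest fitted differences above 0, and each was highest in knockdown replicate 4. Both were also among the 23 genes with both libraries numbered 4 above the other 4. Control replicate 4 stood at 9.64 FPKM for NEO1 and 1.20 for PLXNC1, above all libraries numbered 2 and 3. NEO1, on chromosome 15 from 73051710 to 73305206 (plus strand), was 0.20, 0.04 and 0.43 higher on the log2(FPKM + 1) scale in knockdown than in control replicates 2, 3 and 4. PLXNC1, the receptor of SEMA7A on chromosome 12, stood at 0.887, 0.628 and 1.20 FPKM in the controls and 0.790, 1.14 and 2.38 after knockdown. It passed the filter, with a mean of 1.17 FPKM, through knockdown replicate 4, and without that library it falls below 1 FPKM and has no fitted value. IRF9, part of the transcription factor complex that answers type I interferon, stood at 7.37, 6.06 and 5.12 FPKM and at 35.3, 10.3 and 113. Neither gene passed the threshold (NEO1 SE 0.15, interval -0.14 to 0.59; PLXNC1 SE 0.26, interval -0.30 to 0.92; adjusted p = 0.9998 each, limma).

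**Figure D4:**
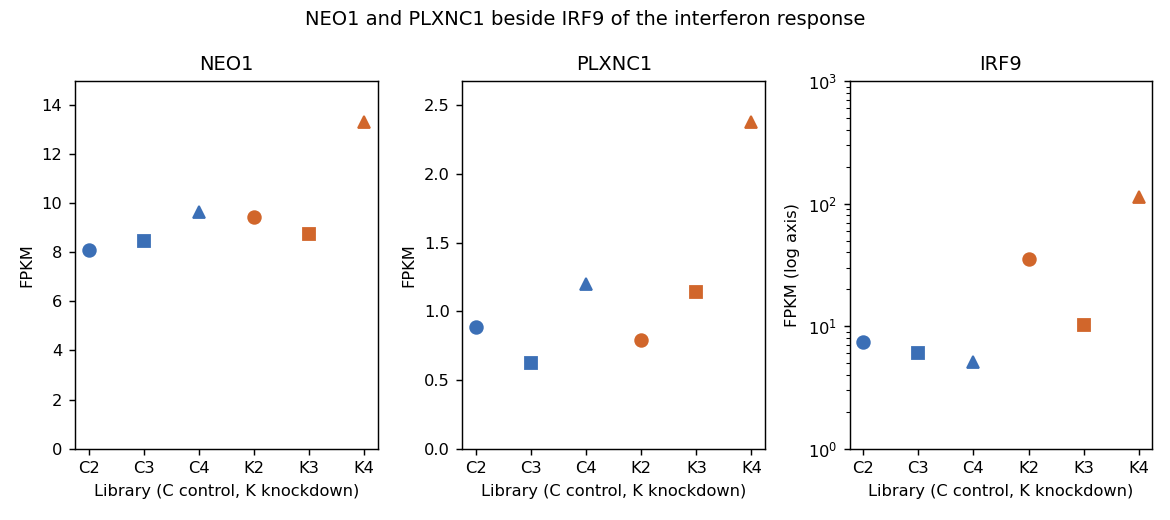
FPKM of NEO1 and PLXNC1 (linear axes from 0) and of the interferon response gene IRF9 (log axis) in control (C, blue) and knockdown (K, orange) replicates 2, 3 and 4. Knockdown replicate 4 is highest in all 3 panels (13.3, 2.38 and 113 FPKM). Knockdown replicate 2 is second for IRF9, and control replicate 4 is second for NEO1 (9.64 FPKM) and PLXNC1 (1.20 FPKM).

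The starts of these 2 genes are shown because they hold the core letters of the interferon-stimulated response element, the DNA element bound by IRF9-containing complexes. These 2 genes were also those with the largest fitted differences above 0, with knockdown replicate 4 highest. PLXNC1 passed the filter through that library, so its place in that order depends on that library. A link of their levels to these letters or to the interferon response was not tested. RefSeq (GRCh38.p14) windows of 250 bases before to 50 after an annotated start were used, taking for each gene the window nearest the outermost start of its RefSeq span and none farther than 1000 bases from it. This left 52 of the 69 genes. The windows were searched on both strands for that core (a pair of GAAA copies parted by any 2 bases), CACGTG (E-box), TGANTCA (AP-1) and TATAAA. The core stood in 3 of the 52 windows (NEO1, PLXNC1 and EPHA4), or 5.77%, against 3.62% of 25745 windows of that length. EPHA4 was listed at 0 in all libraries but knockdown replicate 3 (0.00747 FPKM). The stretches below run 5′ to 3′ on the gene's strand from 100 bases before to 30 after the window's start site, at chr15:73051802-73051931 (plus), chr12:94148477-94148606 (plus) and chr2:221574173-221574302 (minus). Capitals mark the core, which begins 50 bases before the start site in NEO1 (on the opposite strand), 7 after it in PLXNC1 and 79 before it in EPHA4. Start sites differ between annotations: counted from the GENCODE gene start, the core begins 142 bases inside NEO1 and 139 bases before PLXNC1.
NEO1: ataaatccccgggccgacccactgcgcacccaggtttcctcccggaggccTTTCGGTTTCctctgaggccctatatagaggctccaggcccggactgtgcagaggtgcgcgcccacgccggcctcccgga
PLXNC1: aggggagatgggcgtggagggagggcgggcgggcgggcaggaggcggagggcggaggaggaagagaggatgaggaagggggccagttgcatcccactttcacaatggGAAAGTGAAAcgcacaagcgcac
EPHA4: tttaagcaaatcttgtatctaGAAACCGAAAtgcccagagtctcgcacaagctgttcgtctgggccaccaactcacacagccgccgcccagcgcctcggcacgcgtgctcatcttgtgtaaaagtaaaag
A match is a description of letters and does not show binding. The E-box stood in 3 of the 52 windows (EPHA8, SEMA3E and SEMA6D; 5.77% against 7.45% of all), the AP-1 letters in 0 (against 7.74%) and TATAAA in EFNB2 alone (1.92% against 12.1%), starting 30 bases before the start site.

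The median G+C of the promoter windows was higher in the classes of higher gene level. Single genes departed from this, such as ROBO1 (45.3%, mean 9.28 FPKM) and SEMA5A (81.0%, mean 0.813 FPKM). UNC5B, the most abundant guidance gene, is not among the windows. The median G+C share was 72.3% in the 19 windows of genes averaging 5 FPKM or more, 66.8% in the 12 between 1 and 5 and 62.3% in the 21 below 1, against 58.3% in all windows. The median number of CG pairs was 32, 22.5 and 19 in these classes, against 14 in all windows. The 17 matched genes higher in both libraries numbered 4 had a median G+C of 72.7% and the 7 lower ones 64.7%. These are descriptions of small sets with no test.

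Genes that work with these ligands and receptors, inside the cell, at its surface or secreted, were read in the same way. They are called partner genes here, and 1 of their 6 lists holds other guidance cues and receptors. Of 173 partner genes in the 6 lists, 125 were tested and 0 passed the threshold in either direction, where 0% of all genes did. Counting unadjusted p-values under 0.05 gave 1 higher and 2 lower, against 0.97% and 1.19% of all genes. Fitted differences were above 0 for 62 and below 0 for 63, with a median of -0.001. Groups did not overlap for 3 higher and 9 lower of the 125, against 4.01% and 4.35% of all genes. Both libraries numbered 4 lay above the other 4 for 39 of the 125 and below them for 20, against 21.2% and 24.5% of all genes. Among semaphorin and plexin partners, the exchange factors ARHGEF11 (0.15) and ARHGEF12 (0.18) and the GTPase RRAS (0.13) had the smallest p above 0, and FARP1 (-0.16), the oxidoreductase MICAL1 (-0.17) and the collapsin response mediator DPYSL2 (-0.10) below 0. Among Eph partners, the ephrin-cleaving protease ADAM10 stood at 18.1 ± 1.12 FPKM in the controls and 20.0 ± 0.746 after knockdown without overlap (SD, n = 3 each; log2 0.13), with the kinases ABL2 (0.18) and ABL1 (0.11) behind it.

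PICK1, a PDZ protein that binds Eph receptors, had the smallest p of the partner genes, at 13.8, 13.7 and 12.1 FPKM in the controls and 10.0, 10.3 and 12.1 after knockdown (log2 -0.27, SE 0.10, adjusted p = 0.9998, limma). The groups did not overlap, though knockdown replicate 4 and control replicate 4 were alike to the printed digits. PICK1 passed the threshold with limma's library weights (adjusted p = 0.0411). RGS3 (-0.12) and the adaptor NCK2 (-0.09) followed it. Netrin partners were led by the exchange factor TRIO (0.14) and the DCC-binding ligase TRIM67 (0.09) above 0 and by TRIM9 (-0.17), FLRT1 (-0.19) and MAGED1 (-0.07) below. VASP, an actin regulator, headed the Slit and Robo partners at 16.7 ± 1.57 and 20.0 ± 1.78 FPKM (SD, n = 3 each, log2 0.24). It was followed by ABL1 (0.11) and USP33 (0.18), with EVL (-0.13), NCK2 (-0.09) and SRGAP1 (-0.15) below 0. ABL1 and NCK2 stand in the Eph list as well.

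Shared GTPase and actin effectors had 10 of 29 genes above 0 and 19 below, against 46.7% and 53.3% of all genes, and 4 of the 29 were lower without overlap, against 4.35% of all. The actin-severing protein CFL2 stood at 33.9, 34.2 and 34.1 FPKM in the controls and 29.5, 31.6 and 28.8 after knockdown (log2 -0.18, SE 0.07, adjusted p = 0.9998, limma). CDK5 (-0.24) and RHOA (-0.16) followed, with LIMK1 (0.10), SSH2 (0.15) and WASL (0.08) above 0. Of other cues and receptors, the Hedgehog transducer SMO (0.17), CDON (0.20) and CNTN2 (0.23) led above 0. The Nogo receptor RTN4R (-0.25) and its partner LINGO1 (-0.30) were lower after knockdown without overlap, as was the Wnt receptor RYK (-0.10). SMO was higher without overlap. This made 3 lower and 1 higher of the 21 genes tested in this list, against 4.35% and 4.01% of all genes. Each of them had an adjusted p of 0.9998 (limma). LINGO1 stood at 1.82, 1.99 and 2.58 FPKM in the controls and 1.24, 1.65 and 1.69 after knockdown.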

How the data were processed

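Polyadenylated RNA of 3 control and 3 knockdown libraries was measured. The authors deposited FPKM values, 1 column per library, made with TopHat2 and Cuffdiff on the hg38 build per the submitters' processing notes. Their versions and filters are not stated in the labels. FPKM is no count, so no count model was run, and the number of reads is unknown. A gene was kept when its 6 libraries averaged 1 FPKM or more (12164 genes). The log2(FPKM + 1) values were fitted by limma 3.58.1 (R 4.3.3; lmFit, then eBayes with trend; two-sided, no covariate), with Benjamini-Hochberg adjustment over all kept genes and a threshold of 0.05. This scale understates changes of low genes. The steps were tested on simulated data.

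The members, lists and alternatives were chosen with earlier results of these data known. Values are named for genes averaging 5 FPKM or more, the top gene of each role, the 10 smallest p in each direction and the 3 smallest per direction in each partner list. Genes named beyond this were chosen after their values were seen. Groups and replicate numbers came from the labels. Of the partner list entries HJV was not matched. Some genes that this rule would name are not reported here. Positions are those of GENCODE release 29 (GRCh38). RefSeq start windows were chosen by distance from the gene start after the data were seen. Alternatives were other pseudocounts (0.1 and 0.01), filters (none, or 5 FPKM), scalings, eBayes settings, library weights, a replicate block and left-out libraries.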

Additional observations from a re-analysis of the deposited data

How the results depend on the processing

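No guidance gene passed the adjusted threshold under any of the 17 alternatives, over 644 values for 39 genes. MIAT passed at -1.58 (adjusted p = 0.00299) when limma weighted the libraries and at -1.54 (adjusted p = 0.0118) once both number 4 libraries were dropped, and could not be given at a mean of at least 5 FPKM, which it does not reach; leaving out 1 library gave -1.71 to -1.24. With library weights 9 genes of the whole table were called higher and 13 lower, among them 1 partner gene (PICK1), though the estimate of these weights (0.153 to 7.98 per library) ended with a warning that it had not converged; without both libraries numbered 4, 1 was called lower. Guidance genes without overlap, 0 in both directions with all libraries, numbered 1 lower with no filter (EPHA10) and 1 lower under quantile normalization (SEMA4G), 4 higher and 6 lower without both libraries numbered 4, and 0 to 2 higher and 0 to 5 lower when 1 library was left out; the 5 came without knockdown replicate 4 (EPHB2, EPHB3, SEMA3F, SEMA4F and UNC5A), and 2 higher came without control replicate 4 (NEO1 and SEMA3A), knockdown replicate 3 (SEMA3A and SEMA6D) or knockdown replicate 4 (EPHA2 and UNC5B). With the replicate block 0 guidance genes were called and MIAT had an adjusted p of 0.194 (limma); deviations of same-numbered libraries correlated at 0.092, 0.168 and 0.322 for numbers 2, 3 and 4, and not every library correlated best with its own number. The sign of the fitted difference changed at least once for 29 of the 39 genes, none of them called. With library weights these were EFNA1 (-0.06), EFNA3 (0.08), EFNA4 (0.12), PLXNA1 (0.01), PLXNB3 (0.02), PLXND1 (0.07), SEMA4B (-0.01), SEMA6A (-0.06) and SEMA6C (-0.04). Without both libraries numbered 4 they were EFNA1 (-0.12), EFNA3 (0.03), EFNB1 (-0.08), EFNB2 (0.02), PLXND1 (0.03), ROBO1 (0.01), SEMA4B (-0.02), SEMA6A (-0.04), SLIT1 (-0.01) and SLIT3 (0.03). Quantile normalization turned EFNA2 (-0.01), EPHA2 (-0.03) and SLIT1 (-0.03), and upper-quartile scaling turned SLIT3 (0.01). With 1 library left out the sign changed within these ranges: EFNA1 -0.12 to 0.15, EFNA2 -0.12 to 0.14, EFNA3 -0.13 to 0.06, EFNA4 -0.27 to 0.23, EFNB1 -0.06 to 0.15, EFNB2 -0.21 to 0.14, EFNB3 -0.12 to 0.31, EPHA2 -0.06 to 0.13, EPHA7 -0.07 to 0.19, EPHA8 -0.35 to 0.02, EPHB2 -0.12 to 0.01, EPHB3 -0.32 to 0.07, NTN3 -0.12 to 0.39, PLXNA1 -0.21 to 0.13, PLXNA3 -0.21 to 0.01, PLXNB1 -0.04 to 0.12, PLXNB3 -0.09 to 0.04, PLXND1 -0.07 to 0.08, ROBO1 -0.11 to 0.06, SEMA4A -0.18 to 0.01, SEMA4F -0.20 to 0.01, SEMA4G -0.14 to 0.02, SEMA6A -0.29 to 0.29, SEMA6C -0.05 to 0.23, SLIT1 -0.18 to 0.18, SLIT3 -0.08 to 0.09, UNC5A -0.32 to 0.07 and UNC5C -0.03 to 0.16. The cause was not tested. The FPKM table gives no read counts, so the counting error of low genes is unknown.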
